A study of Homo sapiens with 33 samples.

Results

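The genes described here are 48 genes of DNA replication and S phase, found by symbol in a series of 33 RNA-seq libraries from human acute lymphoblastic leukaemia cell lines. All 48 symbols matched 1 Ensembl gene each, out of 62446 gene rows in every library, and all 48 passed the filter on low counts in every comparison. The rule is a list of symbols with no threshold on a measured value, and it was drawn up with earlier results of these data known. The libraries fall into 11 groups of 3 replicates. Nalm6, a B-lineage line, was untreated, exposed to the GSK3 inhibitor and Wnt agonist CHIR-99021 at 0.5 µM, or exposed to the glucocorticoid prednisolone at 5 µM. A second set of Nalm6 libraries held untreated cells and cells exposed to the glucocorticoid dexamethasone at 100 nM. A Nalm6 line with a knockout of TLE1, a transcriptional co-repressor, was untreated, exposed to prednisolone at 5 µM, or exposed to dexamethasone at 100 nM, the last without an untreated knockout group of its own set. CEM, a T-lineage line, was untreated, exposed to CHIR-99021 at 2 µM, or exposed to prednisolone at 10 µM. Every exposure lasted 24 h, and the culture medium named in the labels contained charcoal-stripped serum, which is depleted of steroid hormones. The labels do not say whether the knockout is 1 clone or how it was made. The study asked how glucocorticoid and canonical Wnt signalling affect each other in this leukaemia.

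DNA replication begins with the loading of the MCM helicase at origins by the origin recognition complex with CDC6 and CDT1, and the helicase is then activated at the start of S phase by CDC7 kinase, CDC45 and the GINS complex. Polymerase alpha with primase starts each new strand, polymerases delta and epsilon extend it behind the sliding clamp PCNA, and ribonucleotide reductase, thymidylate synthase and thymidine kinase supply the nucleotides. Many of these genes are transcribed together by E2F factors as cells leave G1, and glucocorticoids are used in this leukaemia because they arrest and kill lymphoid cells.

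The libraries held 25292579 to 61930057 counts assigned to genes, with a median of 39800090. A level is given as counts per 1000000 of these gene counts (CPM). The lineage of the lines was checked on 6 B-lineage and 8 T-lineage markers: all 6 were lower and all 8 higher in untreated CEM than in untreated Nalm6. The glucocorticoid targets TSC22D3, FKBP5 and PER1 were higher in all 4 glucocorticoid comparisons that had their own untreated group. By a test of the difference, 2 of the 3 had a lower prednisolone response in the knockout than in Nalm6, and 1 did not pass, at 0.41. Under dexamethasone all 3 were lower in the knockout than in Nalm6, at -1.58 to -1.12 on the log2 scale. Without drug 1 was lower in the knockout, at -1.52, and 2 did not pass. TLE1 itself lay at 30.2 to 34.0 CPM in untreated Nalm6 and 24.0 to 25.4 CPM in the untreated knockout, and a count over the whole gene does not check a small edit. Its log2 fold change was 1.795 in Nalm6 with prednisolone, 2.25 with dexamethasone and 1.31 in the knockout with prednisolone. In CEM it was 0.07, which was not called. Under dexamethasone TLE1 was lower in the knockout than in Nalm6, at -1.18 on the log2 scale. Replicates differed from each other by more than counting noise in every group. Replicate 3 of Nalm6 with CHIR-99021 and replicate 3 of the untreated knockout stood farthest from their partners. In the first of these, the single-strand binding subunit RPA1 was at 79.3 CPM against 131 and 139.7 CPM in its partners, and thymidylate synthase (TYMS) at 57.7 against 93.9 and 95.5 CPM. In the second, TYMS was at 87.7 CPM against 137 and 153 CPM. Counts of calls that moved by more than 1.5 times without either library are also given without it.

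Together the 48 genes took up about 1% of all gene counts in cells without drug and a smaller share in every glucocorticoid-treated group. Their share was 0.993% to 1.00% in untreated Nalm6 and 0.617% to 0.663% after prednisolone. It was 0.902% to 0.937% in the untreated Nalm6 libraries of the dexamethasone set and 0.514% to 0.518% after dexamethasone. In the knockout the share went from 0.896%-0.914% without drug to 0.475%-0.498% after prednisolone, and lay at 0.496% to 0.512% after dexamethasone. In CEM it went from 1.00%-1.02% to 0.866%-0.888%. The treated and untreated libraries did not overlap in any of these comparisons. Under CHIR-99021 the share was 0.894% to 0.929% in Nalm6 and 0.964% to 0.970% in CEM, each below its own untreated libraries. The Nalm6 range overlapped the 0.902% to 0.937% of the untreated libraries of the dexamethasone set. In bulk RNA a smaller share of cells in S phase and less of these transcripts in each cell cannot be told apart.

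**Figure D1:**
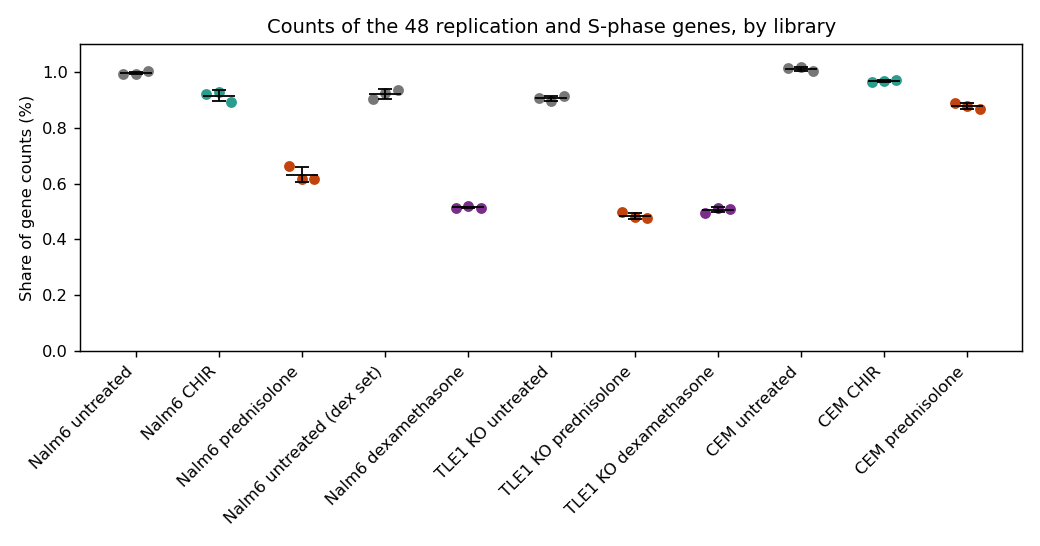
Share of all gene counts, in percent, taken by the 48 replication and S-phase genes in each library (points), with the group mean and SD over 3 libraries (black lines), for the 11 groups. Dexamethasone-treated Nalm6 and both treated knockout groups lie between 0.475% and 0.518%, prednisolone-treated Nalm6 lies at 0.617% to 0.663%, and prednisolone-treated CEM lies at 0.866% to 0.888%.

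Nearly all of the 48 genes were lower after glucocorticoid in Nalm6 cells, and most were lower in CEM by a smaller amount. In Nalm6 with prednisolone, 46 genes fell and 2 rose, where 26.1% of the 18658 genes tested fell and 28.7% rose (edgeR quasi-likelihood F-test, Benjamini-Hochberg adjusted p under 0.05 over all genes tested). Their median log2 fold change was -0.70, against 0.03 for all genes. In Nalm6 with dexamethasone, 45 fell and 1 rose, with a median of -0.85, where 30.2% of genes fell and 30.2% rose. In the TLE1 knockout with prednisolone, 47 fell and 1 rose, with a median of -0.93, where 21.9% fell and 19.8% rose. In CEM with prednisolone, 40 fell, none rose and 8 did not pass, with a median of -0.23, where 22.8% of genes fell and 22.3% rose. All 3 treated libraries lay below all 3 untreated ones for 46 genes in Nalm6 with prednisolone, 45 with dexamethasone, 46 in the knockout and 36 in CEM. Among all genes above a mean of 1 CPM, the corresponding shares were 33.1%, 35.2%, 27.0% and 27.0%. Within Nalm6 with prednisolone, replicate 1 was the least reduced library: the mean over members of log2 CPM relative to the untreated mean was -0.52 there, and -0.63 in the most reduced one.

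**Figure D2:**
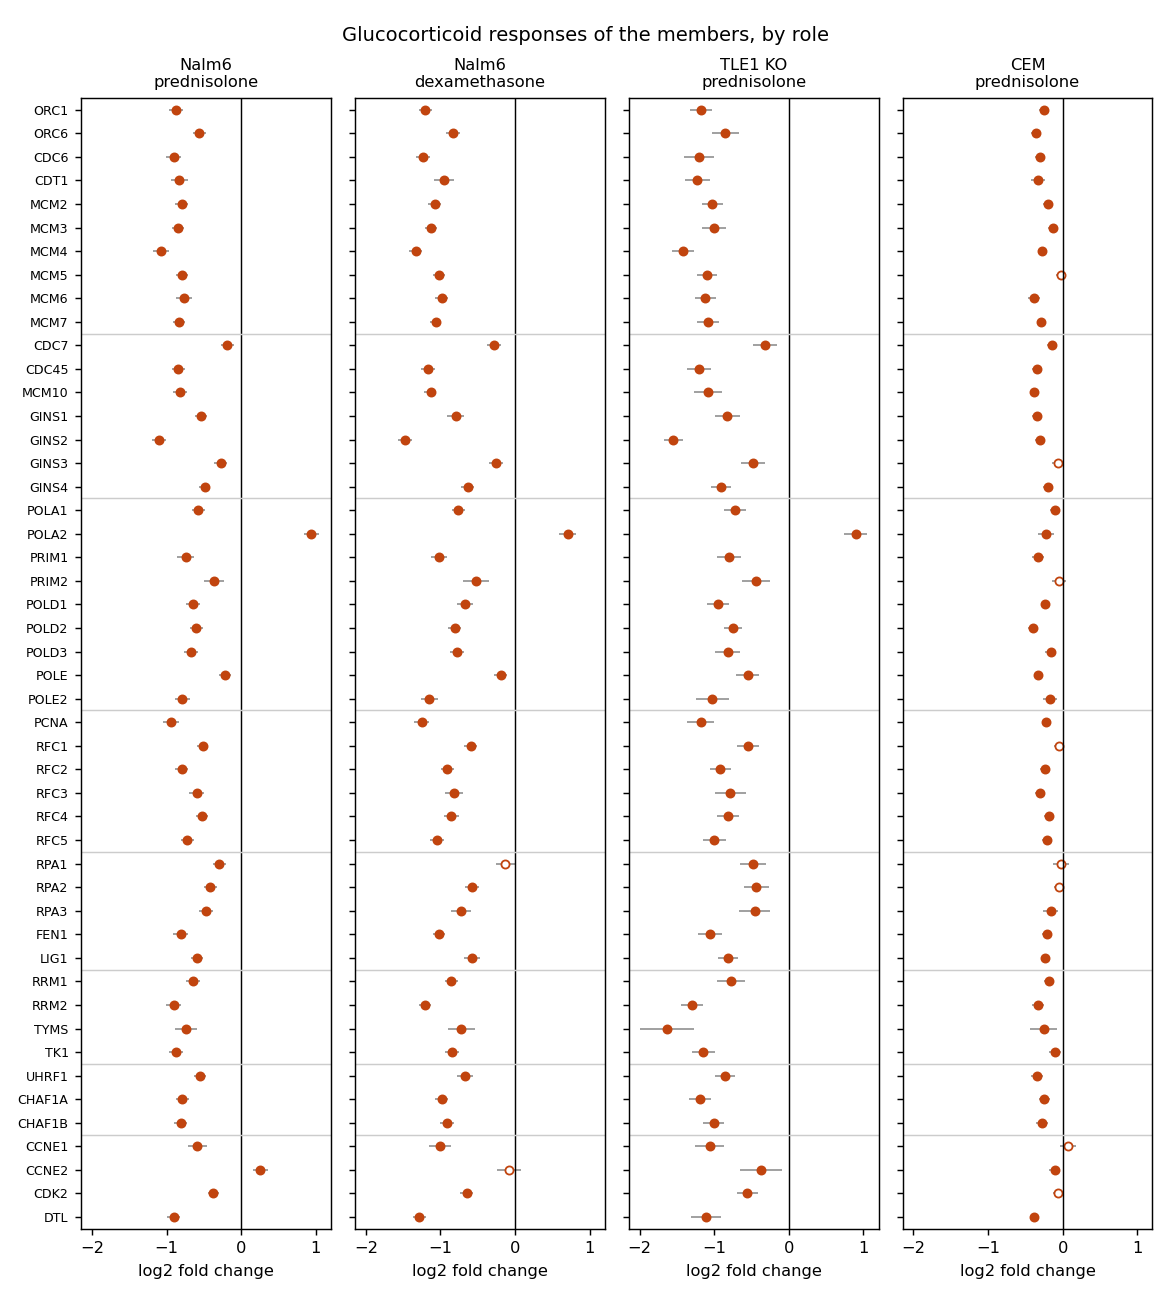
Log2 fold change of each of the 48 genes after glucocorticoid in 4 comparisons (points), with 95% confidence intervals (lines), ordered by role with grey lines between roles. Filled points passed the test at an adjusted p under 0.05 and open points did not. POLA2 lies right of 0 in the 3 Nalm6 panels and left of it in CEM, and CCNE2 changes side between panels.

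The promoters of these genes were searched for the letters of motifs known from cell-cycle genes, because the members moved together. Of the 48 genes, 40 had an entry in a RefSeq table of windows reaching from 250 bases before to 50 bases after the transcript start (GRCh38.p14). An E2F-like motif, spelled TTTCGCGC, TTTGGCGC or TTTCCCGC on either strand, was present in 19 of the 40 windows (47.5%), against 2.74% of 35116 windows of the same length. CCAAT was present in 23 (57.5%), against 34.6% of all windows, and the late-cycle motif CHR (TTTGAA or TTCGAA) in 2 (5.0%), against 16.4%. None of the 40 windows held the exact palindromic glucocorticoid response element, which 1 window in the whole table did. The 4 stretches printed here, picked after the values were seen, are the 160 bases before the start of 3 genes that fell in all 4 glucocorticoid comparisons and of POLA2, which rose in Nalm6. Capitals mark E2F-like matches. They lie at chr2:135876444-135876603 (minus strand) for MCM6, chr20:5126623-5126782 (minus) for PCNA, chr16:85688955-85689114 (minus) for GINS2 and chr11:65261802-65261961 (plus) for POLA2.
MCM6: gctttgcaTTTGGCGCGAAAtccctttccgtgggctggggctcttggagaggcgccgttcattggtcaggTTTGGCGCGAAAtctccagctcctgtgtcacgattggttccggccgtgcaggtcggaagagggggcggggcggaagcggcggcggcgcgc
PCNA: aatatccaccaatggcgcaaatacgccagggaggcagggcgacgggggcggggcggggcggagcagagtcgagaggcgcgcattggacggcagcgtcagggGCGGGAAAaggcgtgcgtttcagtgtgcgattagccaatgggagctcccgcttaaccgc
GINS2: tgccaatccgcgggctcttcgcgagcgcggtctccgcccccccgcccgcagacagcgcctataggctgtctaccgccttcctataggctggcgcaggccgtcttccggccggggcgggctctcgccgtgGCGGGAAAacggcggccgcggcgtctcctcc
POLA2: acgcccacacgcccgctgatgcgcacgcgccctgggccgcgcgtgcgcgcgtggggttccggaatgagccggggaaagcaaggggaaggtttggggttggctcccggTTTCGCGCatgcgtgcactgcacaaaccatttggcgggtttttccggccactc
MCM6, a helicase subunit, had 4 matches in 2 overlapping pairs, which begin 152, 148, 90 and 86 bases before the start. PCNA, GINS2 and POLA2 had 1 match each, beginning 59, 31 and 53 bases before it. The median log2 fold change in Nalm6 with prednisolone was -0.77 for the 19 genes with an E2F-like match and -0.72 for the 21 without. The corresponding values were -0.95 and -0.91 with dexamethasone and -0.29 and -0.23 in CEM. A match is a string of letters and says nothing of binding, and POLA2 carried one although it rose in Nalm6.

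Every origin licensing gene fell in the 3 Nalm6 comparisons. The 10 genes had median log2 fold changes of -0.83 with prednisolone, -1.07 with dexamethasone and -1.11 in the knockout. MCM4 (ENSG00000104738), a subunit of the MCM2-7 helicase, fell furthest of the group. Its levels were 532, 528 and 534 CPM in untreated Nalm6 and 285, 245 and 243 CPM with prednisolone. All treated libraries lay below all untreated ones, and the log2 fold change was -1.07 ± 0.05 (SE, n = 3 per group, edgeR adjusted p = 1.39e-11). The other 5 helicase subunits fell by 0.77 (MCM6) to 0.85 (MCM3) on the log2 scale, a narrower range than their distance from MCM4. CDC6 and CDT1, which load the helicase, fell by 0.91 and 0.83, and ORC1, the largest subunit of the origin recognition complex, by 0.87. ORC6, its smallest subunit, had the smallest fall of the group at 0.56.
With dexamethasone CDC6 went from 128, 126.5 and 119.6 CPM to 53.2, 55.1 and 55.1 CPM, and MCM4 to 40.6% of its untreated mean. In CEM, 9 of the 10 licensing genes fell, with a median of -0.28. MCM6 fell most at -0.38, while MCM5 lay at 473, 465 and 472 CPM without drug and 480, 469.8 and 466 CPM with it. The MCM5 libraries overlapped, and the log2 fold change of -0.02 had a 95% confidence interval of -0.08 to 0.03.

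Origin firing genes split widely in size although all 7 fell in the 3 Nalm6 comparisons. GINS2 (ENSG00000131153), a subunit of the 4-part GINS complex that joins the active helicase, had the largest fall of all 48 genes in parental Nalm6 with either drug. It went from 101, 104 and 104 CPM to 52.7, 47.3 and 47.4 CPM with prednisolone, and the log2 change was -1.102 ± 0.04 (adjusted p by edgeR = 1.62e-12). In the dexamethasone set it went from 90.5, 87.5 and 87.0 CPM to 32.1, 32.1 and 33.6 CPM, a log2 fold change of -1.48 ± 0.05. The groups did not overlap in either set. GINS3, another subunit of the same complex, fell by only 0.28 and 0.26 in the same comparisons, and GINS1 and GINS4 lay between at -0.54 and -0.49 with prednisolone. GINS3 was also the subunit with the least change in CEM, at -0.06, which did not pass.
CDC7, the kinase that triggers firing, had the smallest fall of the 48 genes with prednisolone. Its levels were 85.4, 84.4 and 83.7 CPM without drug and 80.6, 76.3 and 70.9 CPM with it. The groups did not overlap, and the log2 fold change was -0.19 ± 0.04 (edgeR adjusted p = 0.00139). The helicase cofactor CDC45 and the firing factor MCM10 behaved like the licensing genes, with falls of 0.84 and 0.82.

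Among the 9 polymerase and primase genes, 8 fell and 1 rose in each Nalm6 comparison. The one that rose was POLA2 (ENSG00000014138), the regulatory subunit of polymerase alpha. It was at 25.3, 24.1 and 23.6 CPM in untreated Nalm6 and at 45.8, 48.2 and 48.2 CPM with prednisolone. No library overlapped, and the log2 fold change was 0.94 ± 0.05 (edgeR adjusted p = 2.12e-11), the mean reaching 195.2% of the untreated one. With dexamethasone it went from 21.8, 22.1 and 20.7 CPM to 36.1, 38.2 and 33.9 CPM, which is 0.70 ± 0.06 on the log2 scale (edgeR adjusted p = 5.69e-08). In the knockout it went from 25.02, 24.4 and 21.8 CPM to 46.6, 45.7 and 43.8 CPM, which is 0.90 ± 0.07 on that scale (edgeR adjusted p = 4.81e-06). All 3 comparisons placed every treated library above every untreated one. In CEM it fell, from 23.1, 21.5 and 22.8 CPM to 19.3, 19.5 and 20.3 CPM, and the log2 change was -0.22 ± 0.05 (adjusted p by edgeR = 0.00132).
Its partners moved the other way in Nalm6. The catalytic subunit POLA1 and the primase subunits PRIM1 and PRIM2 had log2 fold changes of -0.58, -0.75 and -0.36 with prednisolone and -0.76, -1.02 and -0.52 with dexamethasone. Reads on the opposite strand made up at most 1.49% of the POLA2 reads on both strands in any library. The genes next to POLA2, picked after its values were seen, were CAPN1, at 104 CPM without drug and 139 CPM with prednisolone in Nalm6, and CDC42EP2, at 0.148 and 0.555 CPM. Their part in the POLA2 count was not tested.
The other polymerase pair that parted was that of polymerase epsilon. POLE, its catalytic subunit, went from 503.5, 513 and 514 CPM to 453, 462 and 425.5 CPM with prednisolone, a log2 fold change of -0.22, while POLE2, an accessory subunit, went from 38.1, 38.1 and 36.9 CPM to 23.0, 22.6 and 21.3 CPM, a change of -0.79. With dexamethasone the changes were -0.19 and -1.15. In CEM their order was the other way round, at -0.33 for POLE and -0.17 for POLE2. The polymerase delta subunits POLD1, POLD2 and POLD3 fell by 0.60 to 0.67 in Nalm6 with prednisolone. POLD2 had the largest fall of all 48 genes in CEM, from 223.5, 223 and 216 CPM to 174.5, 168 and 169 CPM, and the log2 change was -0.40 ± 0.03 (adjusted p by edgeR = 8.23e-09).

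**Figure D3:**
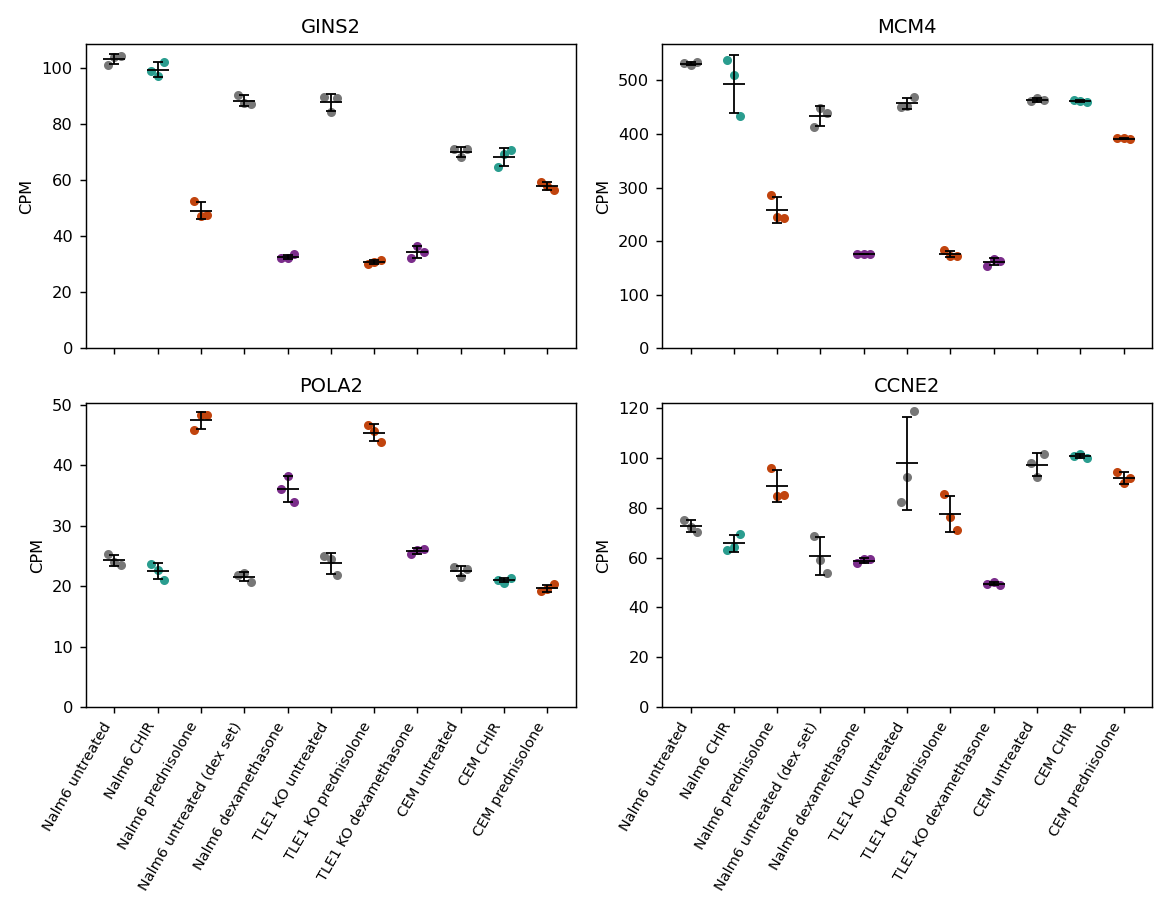
Level in CPM of GINS2, MCM4, POLA2 and CCNE2 in each library (points), with the group mean and SD over 3 libraries (black lines), for the 11 groups and with every axis starting at 0. GINS2 and MCM4 lie below, and POLA2 above, the untreated group of the same set in prednisolone- and dexamethasone-treated Nalm6 and in the prednisolone-treated knockout. The dexamethasone-treated knockout has no untreated group in its set, and CCNE2 differs between groups in both directions.

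All 6 genes of the sliding clamp and its loader fell in the 3 Nalm6 comparisons. PCNA, the clamp itself, went from 488, 472 and 474 CPM to 273.5, 236.5 and 251 CPM with prednisolone, a log2 fold change of -0.94 ± 0.05 without overlap. The 5 subunits of replication factor C, which loads it, fell by 0.52 (RFC1) to 0.80 (RFC2). RFC1, the subunit particular to this loader, also had the smallest change in the group with dexamethasone (-0.60), in the knockout (-0.55) and in CEM (-0.05, which did not pass).
The single-strand binding complex RPA changed less. RPA1, RPA2 and RPA3 fell by 0.29, 0.41 and 0.48 with prednisolone, against 0.81 for the flap nuclease FEN1 and 0.59 for the DNA ligase LIG1. RPA1 did not pass with dexamethasone: its levels were 94.9, 115 and 117 CPM without drug and 103, 102 and 101 CPM with it. Those libraries overlapped, since untreated replicate 1 lay lowest of all 6. Without that library the call was made, and the log2 fold change reached -0.23. In CEM neither RPA1 nor RPA2 passed, at -0.02 and -0.05.

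The 4 genes of nucleotide supply all fell in the 4 glucocorticoid comparisons. RRM2, the regulated subunit of ribonucleotide reductase, fell by 0.91 with prednisolone and 1.21 with dexamethasone, and its partner RRM1 by 0.65 and 0.85. Thymidine kinase TK1 went from 117, 119.5 and 119.6 CPM to 69.8, 62.4 and 66.7 CPM with prednisolone, a log2 fold change of -0.87, and TYMS fell by 0.74. In CEM the falls of TYMS (-0.25) and TK1 (-0.10) did not pass when CEM prednisolone replicate 3 was left out, nor did that of TK1 without untreated replicate 3. For chromatin, the histone chaperone subunits CHAF1A and CHAF1B fell by 0.79 and 0.81 with prednisolone, and UHRF1, which recruits maintenance methylation to replicated DNA, by 0.56. UHRF1 was the least changed of these 3 genes in every Nalm6 comparison and the most changed in CEM, at -0.35.

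The genes that time S phase did not move as 1 group. DTL, which directs CDT1 to destruction, fell by 0.91 and 1.28 with the 2 drugs in Nalm6, and CDK2, the S-phase kinase, by 0.37 and 0.65. CCNE1 and CCNE2, the 2 E-type cyclins that activate CDK2, parted. CCNE1 went from 16.2, 16.9 and 16.3 CPM to 11.9, 11.3 and 10.5 CPM with prednisolone, a log2 fold change of -0.59. CCNE2 (ENSG00000175305) went from 75.2, 72.3 and 70.3 CPM to 96.1, 84.7 and 85.2 CPM, and the log2 change was 0.26 ± 0.05 (adjusted p by edgeR = 0.000262). Every treated library was above every untreated one for CCNE2 and below it for CCNE1. In CEM with prednisolone CCNE1 had a log2 fold change of 0.07, which did not pass, and 47 of the 48 members lay below 0. All treated CEM libraries lay above all untreated ones for CCNE1, with a mean at 107.6% of the untreated one.
CCNE2 did not keep its rise elsewhere. With dexamethasone it lay at 57.7, 59.3 and 59.5 CPM against 68.8, 59.2 and 53.8 CPM without drug, which overlapped and did not pass. In the knockout it lay at 85.4, 76.2 and 71.1 CPM with prednisolone against 82.3, 92.5 and 119 CPM, and the log2 change was -0.38 ± 0.13 (adjusted p by edgeR = 0.0372). Those groups overlapped too. That call was lost when any 1 of knockout replicates 2 or 3, treated or untreated, was left out, and with the replicate block. The adjacent genes were INTS8, at 104 CPM without drug and 122 CPM with prednisolone in Nalm6, and NDUFAF6, at 32.8 and 51.9 CPM. TP53INP1, 2 places from CCNE2 by start position, was picked after its values were seen. It went from 10.6 to 534 CPM in Nalm6 with prednisolone and from 17.8 to 1018 CPM with dexamethasone. With prednisolone it went from 21.0 to 772 CPM in the knockout and from 3.91 to 32.95 CPM in CEM. Reads on the opposite strand made up 7.33% to 23.5% of the CCNE2 reads on both strands. Their part in the CCNE2 count was not tested.

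By the test of the difference between both responses, the prednisolone response was lower in the TLE1 knockout than in parental Nalm6 for 11 members. No gene differed the other way, and 2.38% and 1.1% of the 17952 genes tested differed downward and upward. The median difference over the 48 was -0.22 on the log2 scale, and 46 of the 48 differences were below 0, as were 8948 of all 17952. With the 2 responses fitted separately, 47 of the 48 log2 fold changes were lower in the knockout, with a median difference of -0.24. The 11 genes were TYMS (-0.87), CCNE2 (-0.61), CCNE1 (-0.45), GINS2 (-0.42), GINS4 (-0.39), CHAF1A (-0.38), RRM2 (-0.36), CDC45 (-0.34), POLE (-0.31), MCM5 (-0.28) and UHRF1 (-0.27). Of these, CCNE2 rose in parental Nalm6 with prednisolone. Across the 48 genes the 2 responses had a Pearson r of 0.92, or 0.86 without POLA2, as a description over genes that are not independent. The lower response was not particular to the members. Of 20 mitosis genes, all 20 differences were below 0, with a median of -0.15, and 2 passed. Among 35 other replication genes 25 were below 0, with a median of -0.10, and 4 passed downward and 1 upward. Among 23 G1/S regulators 11 were below 0, with a median of 0.02. These lists are described further below.
GINS2 without drug was at 85.1% of the parental mean in the knockout. The untreated Nalm6 libraries of the dexamethasone set were at 85.7% of that same mean, so this gap was not particular to the knockout. GINS2 lay at 89.5, 84.2 and 89.4 CPM in the untreated knockout and 30.2, 30.9 and 31.6 CPM with prednisolone. Its log2 fold changes were -1.55 there and -1.102 in the parental line. GINS4, also of the GINS complex, went from 78.4, 73.8 and 76.0 CPM to 42.4, 41.0 and 41.5 CPM in the knockout and from 80.0, 83.0 and 81.8 CPM to 59.6, 58.7 and 59.0 CPM in the parental line. These 2 genes kept the call under every one of the 18 alternatives (edgeR adjusted p = 0.00501 and 0.00302 in the fit given here).
TYMS had the largest difference and the widest spread. It lay at 137, 153 and 87.7 CPM in the untreated knockout and 39.3, 41.0 and 45 CPM with prednisolone, against 101, 99.6 and 102 CPM and 72.4, 57.8 and 55.7 CPM in the parental line. The treated knockout libraries lay below all others, and untreated replicate 3 lay apart from its partners. Without that library the TYMS difference was -1.08 and still passed. The remaining members of the 11 lost the call in 3 to 13 of the 18 alternatives. CCNE1 went from 16.6, 17.2 and 17.9 CPM to 8.48, 8.71 and 8.30 CPM in the knockout, and CHAF1A from levels of 173.5 CPM or more to 87.0, 82.9 and 81.5 CPM. RRM2 went from 307, 318 and 304.5 CPM to 138, 124 and 128 CPM, and CDC45 from 127, 118 and 119.8 CPM to 57.0, 56.0 and 49.2 CPM. Treated and untreated libraries did not overlap for any of these 4 genes. The count of 11 was 17 without replicate 3 of the untreated knockout, and 2 without replicate 1 of either untreated or prednisolone-treated parental Nalm6. It was 3 to 5 without treated knockout replicate 2 or 3, untreated knockout replicate 2, untreated Nalm6 replicate 2 or 3, or treated Nalm6 replicate 3. POLA2 rose in both, with a difference of -0.02 that did not pass.

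Prednisolone lowered the members less in CEM than in Nalm6, although the CEM dose was 10 µM and the Nalm6 dose 5 µM. The test of the difference was passed by 46 of the 48 genes: 44 had a higher log2 fold change in CEM, by 0.21 (GINS1) to 0.81 (GINS2 and MCM4), and 2 a lower one, where 14.7% and 12.2% of the 20491 genes tested differed in these directions. MCM5 and TK1 differed by 0.78 each. GINS2 in CEM went from 71.1, 68.2 and 71.0 CPM to 59.5, 57.8 and 56.6 CPM, a fall to 82.7% of the untreated mean, where parental Nalm6 fell to 47.7%. MCM4 in CEM went from 461, 468 and 463 CPM to 392, 392 and 390.0 CPM, or 84.3% of the untreated mean against 48.5% in Nalm6. The CEM libraries did not overlap for either gene. The 2 genes with a lower response in CEM were POLA2 (-1.15) and CCNE2 (-0.35), which rose in Nalm6. POLE and CDC7 did not differ detectably, at -0.10 and 0.06, and both were among the least changed genes in Nalm6. Across the 48 genes the responses of the lines had a Pearson r of 0.30, or 0.42 without POLA2. This test and that of the knockout share the parental Nalm6 libraries.

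**Figure D4:**
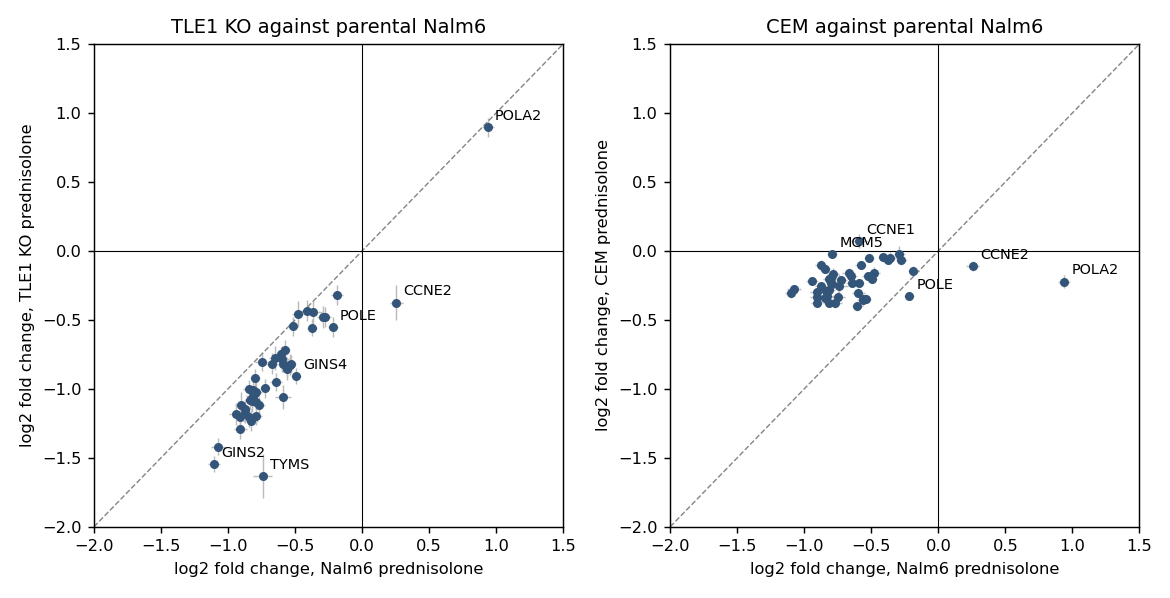
Log2 fold change of each of the 48 genes after prednisolone in the TLE1 knockout (left) and in CEM (right) against that in parental Nalm6, with standard errors (grey lines), the line of equal response (dashed) and both zero lines (black). In the left panel 47 of 48 genes lie below the dashed line, and in the right panel most lie above it, with POLA2 and CCNE2 below.

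By the edgeR test, few members passed under CHIR-99021 in either line. In Nalm6, 5 genes fell and 1 rose, where 4.72% and 3.16% of the genes tested did. In CEM, 5 fell and none rose, where 5.43% and 5.41% did. The log2 fold change was below 0 for 39 members in Nalm6 (9354 of 18082 genes tested) and 24 in CEM (8823 of 17200). In Nalm6 all 3 treated libraries lay below all 3 untreated ones for 21 members and above them for 1. Among genes above a mean of 1 CPM, 18.5% and 16.8% did. In CEM the numbers were 11 and 7, where 19.2% and 14.4% of genes did. TK1, UHRF1, POLE and MCM5 fell in both lines. TK1 went from 117, 119.5 and 119.6 CPM to 96.7, 96.8 and 87.5 CPM in Nalm6, and the log2 change was -0.34 ± 0.05 (adjusted p by edgeR = 0.00224). In CEM it went from 105, 109 and 107 CPM to 92.4, 91.3 and 95.8 CPM, and the log2 change was -0.19 ± 0.04 (adjusted p by edgeR = 0.00823). Neither line overlapped. UHRF1 fell by 0.31 in Nalm6 and 0.17 in CEM, POLE by 0.23 and 0.16, and MCM5 by 0.19 and 0.16. LIG1 fell in Nalm6 alone by this test (-0.21) and MCM7 in CEM (-0.16). The gene that rose in Nalm6 was RFC5, a clamp loader subunit, from 111, 114 and 112 CPM to 132, 125 and 131 CPM, without overlap (log2 fold change 0.21 ± 0.04).
Without replicate 3 of Nalm6 with CHIR-99021, which stood apart, 14 members fell in Nalm6. Leaving out replicate 1 of that group, or replicate 1, 2 or 3 of untreated Nalm6, left 1 or 2. In CEM the count went from 5 to 1 without CHIR-99021 replicate 2, and to 2 or 3 without any 1 untreated library. TK1 kept its call in Nalm6 in all 12 alternatives. The call of RFC5 was lost without replicate 2 or without replicate 3 of untreated Nalm6. No member differed between the responses of the lines by edgeR, where 0.63% and 0.545% of genes did (upward and downward), and none did by DESeq2. At an unadjusted p under 0.05, 13 did, and the smallest adjusted p was 0.174 (CCNE2). The doses differed, at 2 µM in CEM and 0.5 µM in Nalm6.

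Without drug, the knockout had lower CHAF1B, GINS3 and ORC6 and higher POLD2 than parental Nalm6, and these 4 kept the call in all 12 alternatives. None of these alternatives used the untreated Nalm6 group of the dexamethasone set. Per kilobase of exon, CHAF1B was at 10.4 CPM in the knockout, 14.35 in the Nalm6 group used and 11.97 in the other. In the same order GINS3 was at 10.9, 13.7 and 14.0 CPM, ORC6 at 14.4, 18.2 and 19.75 CPM, and POLD2 at 52.8, 45.8 and 43.4 CPM. Of the 48 genes, 15 were lower and 2 higher, where 11.8% and 15.3% of genes tested were. MCM2 to MCM7 were lower by 0.16 to 0.20 on the log2 scale, but all 6 calls were lost without any 1 untreated Nalm6 library. CHAF1B had the largest difference: it lay at 54.6, 53.4 and 52.1 CPM in the knockout and 73.7, 74.2 and 72.5 CPM in the parental line, and the log2 change was -0.44 ± 0.04 (adjusted p by edgeR = 0.000109). GINS3 and ORC6 were each lower by 0.31. POLD2 was higher by 0.23 and CCNE2 by 0.46. The call of CCNE2 was lost without replicate 2 or 3 of untreated Nalm6. The number of lower genes was 23 without replicate 3 of the untreated knockout, 9 without its replicate 2, and 4 or 5 without any 1 untreated Nalm6 library.
Under dexamethasone the knockout was compared with the parental line directly. There 23 members were higher and 12 lower in the knockout, where 28.5% and 28.1% of genes were, and the median was 0.07. GINS3 was lower by 0.59 and POLE by 0.37, while POLE2 was higher by 0.37 and PRIM1 by 0.34. POLA2 lay at 25.3, 26.0 and 26.2 CPM in the dexamethasone-treated knockout, below the 33.9 to 38.2 CPM of dexamethasone-treated Nalm6 (log2 fold change -0.47 ± 0.05, edgeR adjusted p = 3.74e-08). GINS2 in the same knockout libraries lay at 32.1, 36.6 and 34.4 CPM, which overlapped dexamethasone-treated Nalm6 and did not differ detectably (0.09). With no untreated knockout group in this set, a response to dexamethasone was not computed for the knockout.

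Untreated CEM and untreated Nalm6 of the dexamethasone set differed in 34 members, 22 higher and 12 lower in CEM, where 40.2% and 37.3% of genes were. TYMS was higher in CEM by 1.04 on the log2 scale, RPA1 by 0.78, GINS1 by 0.73 and RRM2 by 0.72. GINS3 was lower by 0.91 and UHRF1 by 0.59. Against the other untreated Nalm6 group, TYMS was higher in CEM by only 0.55, RPA1 by 0.53 and RRM2 by 0.48, and GINS1 by 0.69. In that comparison POLA1 went from 0.19 to -0.06 and CCNE1 from -0.15 to 0.18. GINS1 lay at 164, 161 and 166 CPM in CEM against 100.4, 95.9 and 92.2 CPM in Nalm6, and GINS3 at 39.9, 39.3 and 38.4 CPM against 74.8, 70.2 and 70.0 CPM. Neither gene overlapped between the lines, and the 2 subunits of 1 complex differed in opposite directions. The 2 untreated Nalm6 groups also differed, with 8 members higher and 13 lower in the dexamethasone set, where 25.8% and 24.4% of genes were. With the unstranded column these counts were 15 and 10, the balance turned round. TYMS was lower there by 0.52 and CCNE1 higher by 0.31. Each treated group was therefore compared only with the untreated group that shares its style of file naming. Prednisolone-treated Nalm6, deposited beside the untreated libraries of the dexamethasone set, was compared with the untreated group whose title names no drug. No fit against the other group was run, and both tests of a difference of prednisolone responses rest on this choice. Per kilobase of exon, TYMS was at 25.1 CPM with prednisolone, 40.8 in the group used and 27.3 in the other. POLE was at 26.9, 30.7 and 23.9 CPM, and PCNA at 172.5, 324.8 and 291.4 CPM.

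Per kilobase of exon, PCNA had the highest level of the 48 genes in untreated Nalm6, at 325 ± 6 CPM per kb (SD, n = 3). It was followed by UHRF1 at 181 ± 4, MCM7 at 173 ± 2 and MCM3 at 170 ± 1 CPM per kb, of which the last 2 are close to their spread. POLA2 and PRIM2 were lowest, both at 4.2 to 4.3 CPM per kb and within their spread of each other, with CCNE1 next at 6.46. In CEM the order began with PCNA at 430 ± 16 and MCM7 at 198 ± 4 and ended with the same 2 polymerase alpha-primase genes. After prednisolone in Nalm6 POLA2 rose to 8.28 CPM per kb and passed PRIM2, at 3.39.

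A second list of 35 replication genes was read beside the members. In Nalm6 with prednisolone 30 of the 35 fell and 2 rose, with a median log2 fold change of -0.47, and with dexamethasone the same numbers fell and rose. In the knockout 26 fell and 3 rose, and in CEM 23 fell and 2 rose. CDC25A, the phosphatase that activates CDK2, fell by 0.92, 1.20, 1.32 and 0.49 in these 4 comparisons. POLD4, the small subunit of polymerase delta, rose by 1.29, 1.72, 1.101 and 0.28, opposite to POLD1, POLD2 and POLD3. Its level was low, at 1.23, 1.53 and 1.46 CPM without drug and 3.06, 3.13 and 4.13 CPM with prednisolone in Nalm6. The libraries did not overlap.
Of the G1/S regulators tested, 17 of 23 fell and 4 rose in Nalm6 with prednisolone. MYC, which drives growth and cell-cycle entry, went from 721.5, 741 and 752 CPM to 383, 364 and 378 CPM, a log2 fold change of -1.005, and fell by 0.81 in CEM. The D-type cyclin CCND3 and its kinase CDK4 fell by 0.81 and 0.80 in Nalm6. Of the CDK inhibitors, CDKN1B rose by 0.45 and CDKN1A fell by 0.86. TFDP1, the dimerization partner of E2F factors, fell by 0.998 in Nalm6. It lay at 22.4 to 23.8 CPM in untreated Nalm6, at 199.9 to 203 CPM in untreated CEM, and at 0.0918 to 0.104 CPM in the untreated knockout, where the library with the fewest held 3 counts. In the treated knockout it was no higher, at 0.0395 to 0.1004 CPM over the 6 libraries. The part of TFDP1 in the differences between knockout and parental line was not tested.
Medians nearer to 0 were found for the mitosis list, a difference that was not tested. Of its 20 genes, 9 fell and 1 rose in Nalm6 with prednisolone, with a median of -0.08. With dexamethasone 17 fell and in the knockout 15, with medians of -0.30 and -0.38. In CEM 6 fell and 3 rose, with a median of -0.05. The proliferation marker MKI67 had log2 fold changes of 0.03 in Nalm6 with prednisolone, 0.04 with dexamethasone and -0.04 in CEM, none of which passed. With dexamethasone MKI67 was the highest of the 20 genes, of which 19 lay below 0. In the knockout it fell by 0.84, from 411, 454 and 257 CPM to 212, 195.5 and 236 CPM, with untreated replicate 3 again apart from its partners. Without that library MKI67 fell by 1.05.

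**Figure D5:**
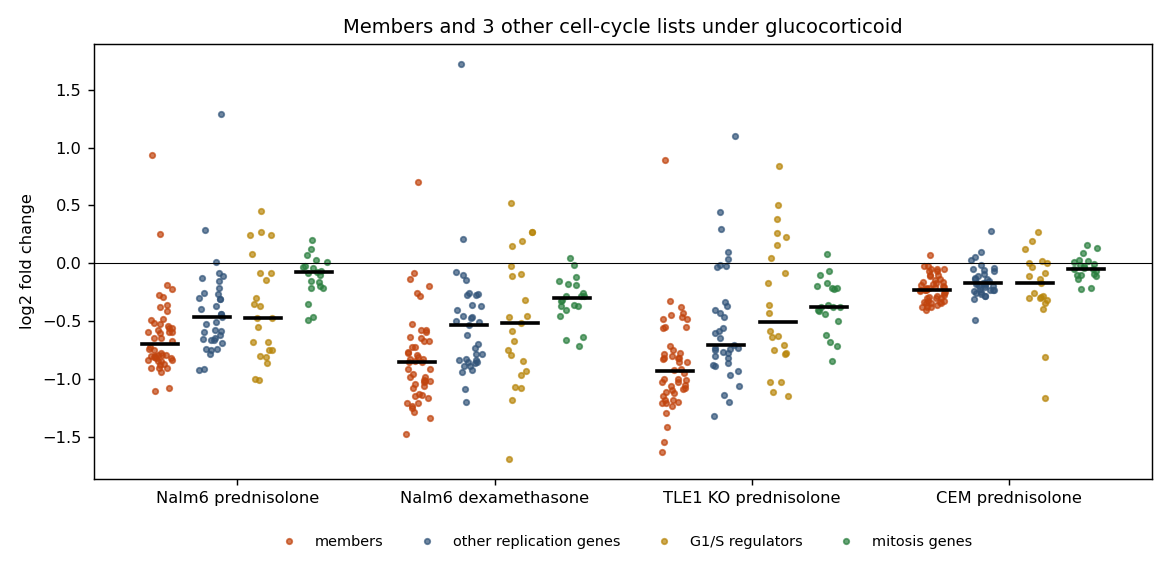
Log2 fold change of single genes (points) and the median of each list (black bars) for the 48 members, 35 other replication genes, 21 to 23 tested G1/S regulators and 20 mitosis genes in 4 glucocorticoid comparisons. The median of the members is the lowest of the 4 lists in each comparison, at -0.70, -0.85, -0.93 and -0.23, and that of the mitosis genes is the nearest to 0.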

How the data were processed

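RNA was sequenced from 33 libraries in 11 groups of 3. The authors deposited, per library, a table of read counts per gene in 3 columns that differ in strand. The 4th column of each file, the strand holding most reads, was used here. The submitters' processing notes name Bowtie2, DESeq2 and hg19 without versions or roles, and the column layout is that of STAR; the aligner used for these tables is not given in the sources used here. Groups follow the sample titles, since the treatment text assigns some drugs to other lines.

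Rows that name no gene were left out. The 25292579 to 61930057 counts per library limit precision little for these genes. Counts were tested with edgeR 4.0.16 in R 4.3.3 (low-count filter, TMM scaling, quasi-likelihood F-test, Benjamini-Hochberg adjustment over all genes tested, threshold 0.05), and differences of responses by interaction terms. The standard error is the fold change divided by the square root of F. DESeq2 1.42.0, other scalings and filters, the unstranded column, a replicate block and leaving out each library were alternatives. Labels call the replicates independent experiments for some groups only; elsewhere p-values measure the spread between libraries, which may be technical. Exon lengths came from GENCODE and promoter sequences from RefSeq, GRCh38.p14.

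Per-library values are given for the members with the largest and smallest change in each role, those called against the majority and those called in a difference of responses; members with a smaller fall in CEM are given by counts and range. The members and lists were chosen with earlier results of these data known.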

Additional observations from a re-analysis of the deposited data

Results flagged for a closer look

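The response to prednisolone differed between the TLE1 knockout and parental Nalm6 in 11 members, all lower in the knockout, by the edgeR test of the difference itself. The differences on the log2 scale were -0.87 for TYMS, -0.61 for CCNE2, -0.45 for CCNE1, -0.42 for GINS2, -0.39 for GINS4, -0.38 for CHAF1A, -0.36 for RRM2, -0.34 for CDC45, -0.31 for POLE, -0.28 for MCM5 and -0.27 for UHRF1. By the same kind of test, the response differed between CEM and Nalm6 in 46 members, 44 higher and 2 lower in CEM. Those named in the text were GINS1 (0.21), MCM4 (0.81), GINS2 (0.81), MCM5 (0.78), TK1 (0.78), CCNE2 (-0.35) and POLA2 (-1.15).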

How the results depend on the processing

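Over all 48 members and all comparisons, the alternative fits gave 8400 values for single members: 8020 kept their side of the threshold, 250 lost a call and 128 gained one. In 2, a called direction reversed, both for CEM against the other untreated Nalm6 group: POLA1 from 0.19 to -0.06 and CCNE1 from -0.15 to 0.18. The counts of lower members stayed at 46 in Nalm6 with prednisolone, 45 to 46 with dexamethasone, 46 to 47 in the knockout and 36 to 41 in CEM. Smaller counts moved. Without a low-count filter, 12 members and not 5 fell in Nalm6 with CHIR-99021. With the unstranded column, the untreated knockout had 7 lower members and not 15, the untreated Nalm6 sets 15 higher and not 8, with 10 lower and not 13, and the difference between knockout and parental prednisolone responses 6 and not 11, which DESeq2 put at 17. With the replicate block these counts were 3 for Nalm6 with CHIR-99021, 7 for the untreated knockout and 7 for the difference of responses. Same-numbered libraries did not pair: their deviations correlated at -0.075 to 0.075. Leaving out 1 library gave 0 to 1 higher and 1 to 14 lower members for CHIR-99021 in Nalm6, and 0 to 1 and 1 to 6 in CEM. It gave 1 to 5 higher and 4 to 23 lower in the untreated knockout, 5 to 9 higher between the untreated Nalm6 sets, 2 to 17 lower for the difference of knockout and parental responses, and 0 to 1 higher for that of the CHIR-99021 responses. The cause was not tested.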
